A study of Mus musculus with 14 samples.

Results

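Livers of mice fed a high-calorie diet with resveratrol were compared with livers of mice fed standard diet, the comparison that shows what stays changed by the diet, and what is new, when resveratrol is present. It used the 9 arrays titled for these diets (4 resveratrol, 5 standard diet) of 14 in the study. The remaining 5 arrays, from mice fed the high-calorie diet alone, were used to sort the changes. They also entered the same statistical fit, so the SEs and adjusted p-values below rest partly on their spread. All mice were C57BL/6 males of 1 year, fed without restriction. The standard diet was AIN-93G. The high-calorie diet was AIN-93G modified so that 60% of calories came from fat, and the resveratrol diet was that same feed with 0.04% resveratrol, so no array tests resveratrol on standard feed. The labels do not state how long the mice were fed. Each array compared the liver RNA of 1 mouse, labelled with Cy3, with a pool of 5 standard-diet livers labelled with Cy5, with no dye swap. All levels below are log2 ratios of liver over pool, and all differences are resveratrol minus standard diet in log2 units unless named otherwise.

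Resveratrol is a plant polyphenol studied for effects that overlap those of calorie restriction, with the deacetylase SIRT1 and the energy sensor AMPK among its proposed mediators. In liver, a diet rich in fat is met through the fatty acid receptors PPAR-alpha and PPAR-gamma, which raise oxidation and storage genes. Cholesterol and fatty acids are made under the SREBP factors: SREBP2 mainly drives cholesterol enzymes when membrane sterol is low, and SREBP1c, with insulin, drives fatty acid synthesis.

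The arrays themselves differed in ways that touch this comparison. The slide numbers fall into 2 runs, split here at their widest gap, and the 5 standard-diet arrays lay in the second run while 3 of the 4 resveratrol arrays lay in the first, so for those 3 arrays diet and slide run cannot be told apart. Resveratrol array 2 was the only one in the run of the standard-diet arrays. The images of all 4 resveratrol arrays were extracted on day 1, as were those of 3 standard-diet arrays. Median net Cy3 signal was 66.0 ± 13.6 (SD, n = 5) on standard diet and 79.3 ± 15.9 (SD, n = 4) with resveratrol. Hepatocyte markers were above background on all 9 arrays for 17 of 17 tested genes. Resveratrol array 3 stood apart: its median over 26 acute phase genes was 2.03 above the standard-diet mean, against -0.03, -0.12 and 0.53 for resveratrol arrays 1, 2 and 4. It also lay at -31.3 on the second principal component, where the other 13 arrays lay between -6.12 and 19.8. The 19.8 was that of standard-diet array 2, which also had the lowest median net Cy3 signal, 48.6.

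After limma with Benjamini-Hochberg adjustment, 70 of 32677 tested genes differed between the diets at an adjusted p under 0.05 (0.214%), 41 of them higher with the resveratrol diet (0.125%) and 29 lower (0.0887%). In all 70 the resveratrol and standard-diet arrays did not overlap, which held for 961 of all tested genes (2.94%), 356 with resveratrol higher (1.09%) and 605 lower (1.85%). Enzymes of cholesterol synthesis led the rises, with Hmgcs1, Msmo1 and Idi1 at differences of 2.03, 2.17 and 1.93, together with adipsin (Cfd, 2.57). The iron hormone gene Hamp (-1.12), E-cadherin (Cdh1, -1.01) and fructokinase (Khk, -0.80) led the falls. Over 2-fold differences were few, 7 higher and 2 lower, and the median difference over all genes was 0.00045. In whole-liver RNA, a change in the number of cells of a type and in the RNA per cell cannot be told apart. The number of calls moved with single arrays: it was 214 without standard-diet array 2, 210 without resveratrol array 3, 159 without standard-diet array 5, 45 without standard-diet array 1, 41 without resveratrol array 2, 30 without standard-diet array 3, 28 without resveratrol array 4 and 23 without standard-diet array 4. It was 24 when the fit held only the 9 arrays compared, without the high-calorie arrays. With slide run as a block 10 genes were called, 9 of them among the 70. All 56 called genes with a symbol kept their sign with slide run as a block, when their median size was 0.56. They were chosen as called on these same arrays, so kept signs were nearly fixed beforehand. That count therefore does not show that the differences are free of slide run. Leaving out each array in turn, 16 of the 56 were called in all 9 fits, among them Hmgcs1, Msmo1, Hsd17b7, Dhcr7, Cyp51, Erg28, Cfd, Por, Plin2, Hacd3, Scpep1, Khk and Pcp2. Every other called gene named here was lost without at least 1 array. Of 20 called genes with over 1 probe above background, Pcp2 and Pigs had probes of opposite sign.

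The high-calorie diet alone differed from standard diet in 3085 genes (9.44%), and resveratrol differed from high calorie in 1762 (5.39%); the 3 comparisons share arrays, so their counts are not independent of each other. Of the 70 genes, 47 were also called in the same direction by the high-calorie diet alone, 27 higher and 20 lower. Among those 47, resveratrol differed from high calorie in 12: 8 rises were smaller with resveratrol, and 4 rises were larger, those of Msmo1, Dhcr7, Hsd17b7 and a transcript without a matched gene. A further 17 genes, 11 higher and 6 lower, were new with resveratrol: called against standard diet and in the same direction against high calorie, but not between the other diets. The remaining 6 passed only against standard diet. These class counts moved with single arrays as well. The 47 became 168 without resveratrol array 3, 146 and 131 without standard-diet arrays 2 and 5, 31, 19 and 14 without standard-diet arrays 1, 3 and 4, and 28 and 20 without resveratrol arrays 2 and 4. The 17 became 39, 8 and 9 without standard-diet arrays 2, 3 and 4, and 8, 9 and 8 without resveratrol arrays 1, 2 and 4. In the opposite sense, 1034 genes called for the high-calorie diet alone were called in the reverse direction for resveratrol against high calorie and did not pass against standard diet.

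**Figure D1:**
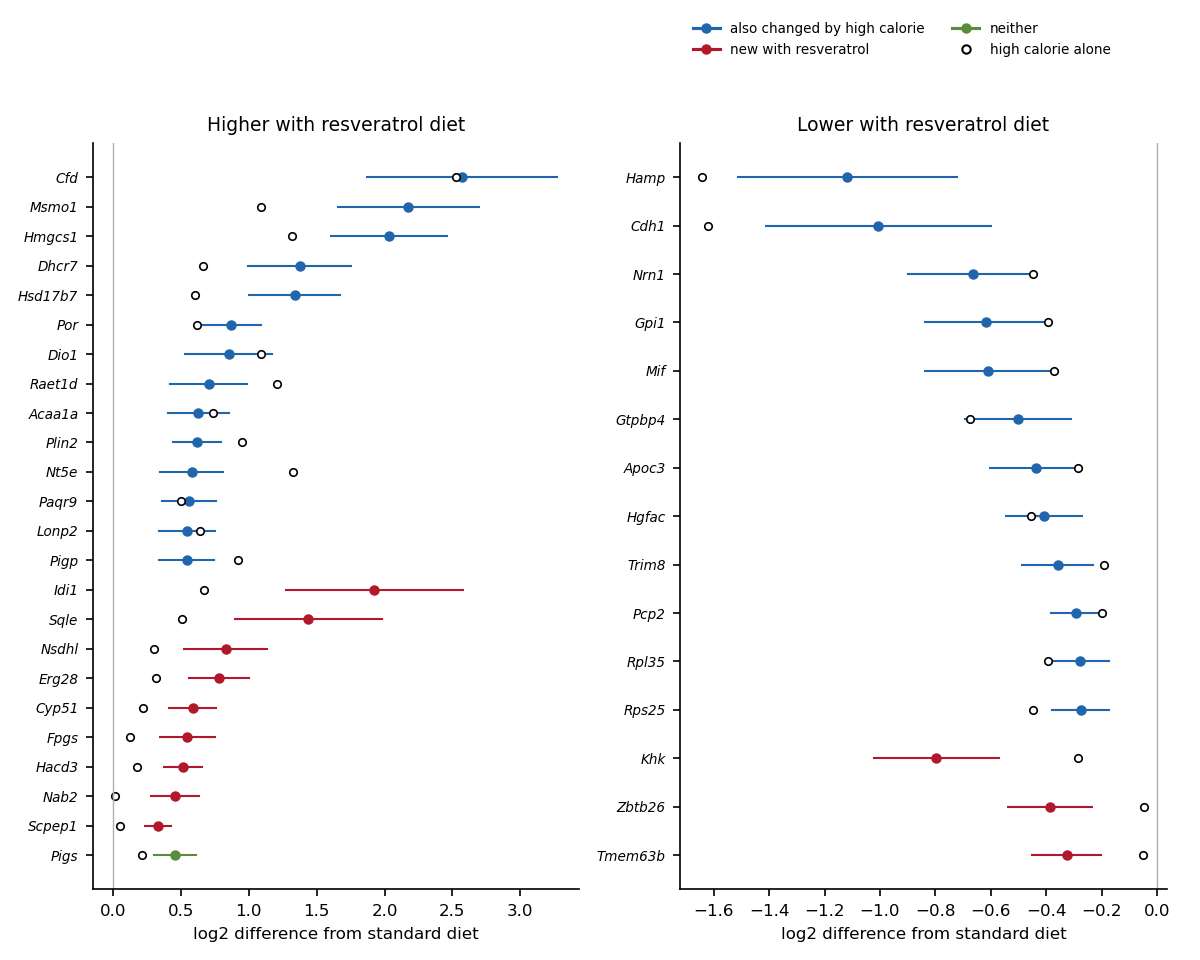
Differences from standard diet on the log2 scale for 39 of the 56 called genes with a symbol, those named in the text, rises on the left and falls on the right: filled points are the resveratrol diet with 95% intervals, coloured by whether the high-calorie diet alone was also called, and open points are the high-calorie diet alone. For Msmo1, Hmgcs1, Dhcr7, Hsd17b7, Idi1 and Sqle the open points lie to the left of the filled ones, and for Nt5e, Plin2, Hamp and Cdh1 they lie further from 0.

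At an unadjusted p under 0.05, without adjustment for the number of genes, 3466 of all tested genes differed (10.6%), 1611 higher (4.93%) and 1855 lower (5.68%); the counts of list members at that threshold are to be read against these shares.

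Cholesterol synthesis had the most called genes of the 49 gene lists examined. Of its 19 tested genes, 8 rose and 0 fell, with a median difference of 0.67; 15 were higher and 1 lower at an unadjusted p under 0.05 in limma. Hmgcs1 encodes the cytosolic HMG-CoA synthase, an early enzyme of the pathway. Its standard-diet arrays read -1.02, -1.09, -0.92, -1.16 and -0.72, and its resveratrol arrays 0.32, 1.27, 1.36 and 1.25. Every resveratrol liver was above every standard-diet liver, with resveratrol array 1 well below its 3 companions. The difference was 2.03 ± 0.20 (SE; limma adjusted p = 0.0010), about 4.10-fold, and the high-calorie diet alone gave 1.32. It was the only one of the 56 genes called under all 27 alternatives run, slide run as a block included (2.18, adjusted p = 0.010).

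Idi1, the isomerase that interconverts the isoprenoid building blocks, read -2.19, -2.13, -1.56, -2.32 and -1.38 on standard diet and -0.62, 0.15, 0.45 and 0.04 with resveratrol. The groups did not overlap, again with array 1 the lowest of the resveratrol livers. Its difference of 1.93 ± 0.30 (SE; limma adjusted p = 0.020) stood beside 0.67 for high calorie alone, which did not pass (adjusted p = 0.15), and resveratrol exceeded high calorie by 1.26 (adjusted p = 0.031). Sqle, the squalene epoxidase, followed the same order: -1.24, -1.27, -0.96, -1.76 and -0.80 on standard diet, against -0.23, 0.33, 0.64 and 0.18. Its difference was 1.44 ± 0.25 (SE; limma adjusted p = 0.037). Both calls were fragile: leaving out standard-diet array 4, resveratrol array 2 or resveratrol array 4 took the adjusted p of Idi1 to 0.073, 0.065 and 0.078, and that of Sqle to 0.096, 0.10 and 0.11; Sqle was lost as well without standard-diet array 1 (0.078) or 3 (0.065).

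The sterol part of the pathway moved with them. Msmo1, the methylsterol oxidase that starts removal of the methyl groups from the sterol ring, read -2.03, -1.82, -1.42, -1.98 and -1.24 on standard diet and 0.03, 0.42, 0.86 and 0.59 with resveratrol. No arrays overlapped, and the gap between the groups was wider than either group's range. The difference of 2.17 ± 0.24 (SE; limma adjusted p = 0.0024) was larger than that of high calorie alone (1.09), and the excess over high calorie was itself called (1.08, adjusted p = 0.023). Its partners in the same demethylation complex rose too: Nsdhl, the dehydrogenase, by 0.83 and Hsd17b7, the ketoreductase, by 1.34. Erg28, the scaffold of that complex and not on the list, rose by 0.78. Cyp51, the lanosterol demethylase, rose by 0.59, and Dhcr7, a reductase of the final steps, by 1.37. Where these genes had further probes above background, the probes had the same sign with other sizes: 1.02 for Hsd17b7, 0.42 for Dhcr7, 0.37 and 0.35 for Nsdhl, and 0.84 and 0.28 for Cyp51.

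Not every step passed. Fdps and Fdft1, which make farnesyl diphosphate and squalene, stood at 0.87 (adjusted p = 0.39) and 0.71 (adjusted p = 0.087), Pmvk at 0.67 (adjusted p = 0.29) and Mvd at 0.40 (adjusted p = 0.41). Mvk and Ggps1, a branch enzyme that leads away from sterols, were at -0.15 and -0.11, and neither passed. Lss, which closes the sterol ring, and Acat2, at the entry of the pathway, were at 0.11 and 0.08. By array, the list median was 0.25, 0.80, 1.12 and 0.63 above the standard-diet mean in resveratrol arrays 1 to 4, and the standard-diet arrays ranged from -0.19 to 0.27. So array 1 lay inside the standard-diet range for the list as a whole, though not for any of the 8 called genes. The list median was 0.80 with resveratrol array 2, the array in the standard-diet slide run, set against those 5 arrays. With slide run as a block it was 0.78, but calls then fell from 8 to 3. Without resveratrol array 3 it was 0.58 with 8 calls.

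**Figure D2:**
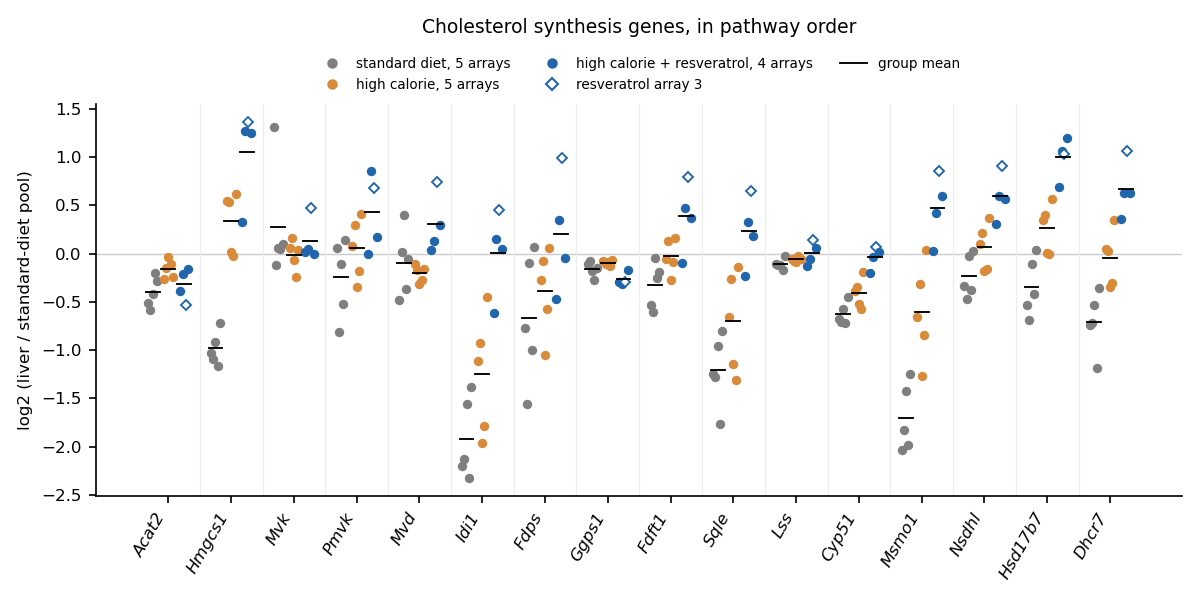
Log2 ratio of each liver to the standard-diet pool for 16 of the 19 tested cholesterol synthesis genes in pathway order, with 1 point per array, black bars for group means and an open diamond for resveratrol array 3. For Hmgcs1, Idi1, Sqle, Msmo1, Hsd17b7 and Dhcr7 the 4 resveratrol points lie above all 5 standard-diet points, with the mean of the 5 high-calorie points between the means of the other groups; Mvk, Ggps1 and Lss show no such order.

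Because these genes rose together, the RefSeq promoter table (GRCm38.p6) was searched in the 250 bases before each start for 2 motifs of sterol-regulated promoters, on both strands: the sterol regulatory element as TCACNCCAC, the site class bound by SREBP, and CCAAT, the box bound by NF-Y. Promoters were matched for 15 of the 19 tested genes. Counting any listed start of a gene, CCAAT was in 14 of those 15 (93.3%), against 37.5% of all 27025 genes in the table, and TCACNCCAC in 1 of 15 (6.67%), Hmgcs1, against 1.22%. Acat2, which was not called, was the gene of the list without a CCAAT. The other uncalled genes with a matched promoter held it: Mvk 5 and Ggps1 3, though neither rose, and Mvd, Ebp, Lss, Sc5d and Pmvk at least 1. Among the 9 called genes (8 of the list and Erg28) CCAAT was in 7 of 8 matched promoters, and Erg28 lacked it. The motif thus did not mark out the called genes. A match is a string of letters and not a measured binding site, and the windows of Sqle and other unmatched genes were not examined. The upstream windows of 4 of the genes with the largest rises are shown with both motifs in capitals; CCAAT reads ATTGG on the other strand, and the motifs did not overlap. Hmgcs1 is at chr13:119690101-119690350 (plus strand), Idi1 at chr13:8885356-8885605 (plus), Msmo1 at chr8:64733579-64733828 (minus) and Hsd17b7 at chr1:169969206-169969455 (minus).
Hmgcs1: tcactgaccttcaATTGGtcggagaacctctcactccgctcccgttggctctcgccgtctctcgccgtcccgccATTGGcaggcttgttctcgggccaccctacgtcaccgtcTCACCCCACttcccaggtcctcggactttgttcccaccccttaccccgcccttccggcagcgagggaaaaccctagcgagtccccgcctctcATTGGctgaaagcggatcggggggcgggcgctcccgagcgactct
Idi1: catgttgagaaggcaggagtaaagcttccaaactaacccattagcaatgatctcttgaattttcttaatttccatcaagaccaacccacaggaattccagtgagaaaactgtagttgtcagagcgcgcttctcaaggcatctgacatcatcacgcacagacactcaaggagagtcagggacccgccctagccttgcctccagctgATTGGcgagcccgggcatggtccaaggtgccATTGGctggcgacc
Msmo1: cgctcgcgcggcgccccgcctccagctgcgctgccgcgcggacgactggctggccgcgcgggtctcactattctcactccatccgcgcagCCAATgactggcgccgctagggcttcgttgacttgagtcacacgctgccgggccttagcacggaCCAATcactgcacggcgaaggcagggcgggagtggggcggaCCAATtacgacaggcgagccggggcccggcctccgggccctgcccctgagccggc
Hsd17b7: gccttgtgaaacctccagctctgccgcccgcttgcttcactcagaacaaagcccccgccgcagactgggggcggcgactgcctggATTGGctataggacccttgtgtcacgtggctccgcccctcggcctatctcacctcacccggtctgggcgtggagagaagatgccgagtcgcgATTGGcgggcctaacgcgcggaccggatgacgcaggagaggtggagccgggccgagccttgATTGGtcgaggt
Hmgcs1 holds the single TCACNCCAC and 3 CCAAT boxes, Msmo1 and Hsd17b7 hold 3 CCAAT boxes each, and Idi1 holds 2 close to its start.

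The regulators of the pathway moved little. Of 13 tested genes of SREBP2 control and LDL uptake, 0 were called, with a median difference of 0.11; 5 were higher and 2 lower at an unadjusted p under 0.05 in limma. Srebf2 itself read 0.00, -0.03, -0.02, -0.08 and -0.01 on standard diet and 0.05, 0.21, 0.20 and 0.34 with resveratrol. Every resveratrol array lay above every standard-diet array, array 1 by the least. The difference was 0.23 ± 0.05 (SE; limma adjusted p = 0.094). Cyp7a1, the first enzyme of bile acid synthesis, was at 0.55 (adjusted p = 0.14). Cyp7a1 on standard-diet array 1 read 0.08, against -0.80 to -0.63 on the other 4, and without that array its adjusted p was 0.0022; a second probe gave 0.06.

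Some genes that bring sugar into hepatocyte metabolism fell. Of 21 tested genes of glucose and fructose metabolism, 0 rose and 3 fell, Khk and Gpi1 among them, with a median of -0.29; 2 were higher and 8 lower at an unadjusted p under 0.05. Khk, ketohexokinase, phosphorylates fructose. Its standard-diet arrays read 0.95, 0.69, 0.59, 0.78 and 0.84 and its resveratrol arrays -0.11, 0.29, -0.17 and -0.12. All 4 resveratrol livers were below the standard-diet livers, array 2 the least so. The difference was -0.80 ± 0.11 (SE; limma adjusted p = 0.0065); high calorie alone gave -0.29, which did not pass (adjusted p = 0.081), and resveratrol was below high calorie by 0.51 (adjusted p = 0.017 for -0.51), which makes Khk a fall new with resveratrol. A second probe gave -0.76. With array 2 alone, set against the standard-diet arrays of its own slide run, the difference was -0.48. With 1 resveratrol array, that value has no spread among resveratrol livers to be judged by.

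Gpi1, the glucose phosphate isomerase of glycolysis, read 0.68, 0.16, 0.26, 0.34 and 0.17 on standard diet and -0.36, -0.31, -0.23 and -0.30 with resveratrol. The resveratrol livers lay close together, all below the standard-diet livers. The difference of -0.62 ± 0.10 (SE; limma adjusted p = 0.028) stood beside -0.39 for high calorie alone, and resveratrol minus high calorie was -0.22 ± 0.10 (SE; adjusted p = 0.21). Its call was lost without standard-diet array 3 or 4 or resveratrol array 1, 2 or 4 (adjusted p up to 0.10). Tkfc, which acts after ketohexokinase in fructose use, was at -0.45 (adjusted p = 0.12), with no array overlap. The gluconeogenic genes Pck1 and G6pc were at 0.91 (adjusted p = 0.40) and 0.09 (adjusted p = 0.93). By array, the list median was -0.28, -0.07, -0.42 and -0.07 with resveratrol and from -0.16 to 0.14 on standard diet, so arrays 2 and 4 lay within the standard-diet range. The median over the list was -0.07 without resveratrol array 3 and -0.07 within the slide run of array 2.

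**Figure D3:**
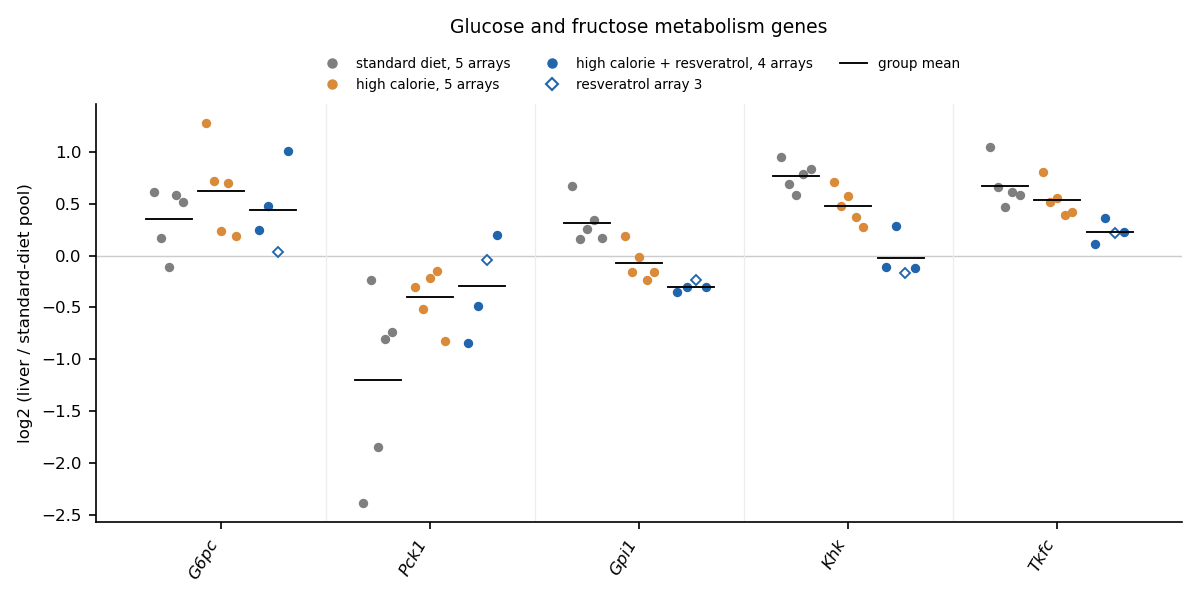
Log2 ratio of each liver to the standard-diet pool for the 5 glucose and fructose metabolism genes named in the text, of 21 tested, with 1 point per array, black bars for group means and an open diamond for resveratrol array 3. The resveratrol points of Gpi1, Khk and Tkfc lie below every standard-diet point, and the resveratrol mean is the lowest of the 3 diets for each of them.

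Fatty acid synthesis did not pass. Of 18 tested lipogenic genes, 0 were called; 0 were higher and 5 lower at an unadjusted p under 0.05 in limma, with a median of -0.30. Srebf1, the driver of the pathway, was at -0.61 ± 0.20 (SE; limma adjusted p = 0.29), Fasn, the fatty acid synthase, at -0.61 ± 0.20 (adjusted p = 0.29) and Scd1, the stearoyl desaturase, at -0.64 ± 0.42 (adjusted p = 0.63). Scd1 shows the spread: 2.58, 0.73, 2.22, 1.80 and 2.70 on standard diet, and 1.65, 2.26, -0.01 and 1.59 with resveratrol, where array 3 is low. The list median was -0.29, 0.16, -0.52 and -0.37 on resveratrol arrays 1 to 4, against -0.39 to 0.43 on standard diet. Within the slide run of array 2 its sign was the opposite, 0.16, and the sizes of these genes are therefore not settled here.

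Peroxisomal oxidation is the chain-shortening of long fatty acids that PPAR-alpha induces. Of 18 tested genes, 2 rose, Acaa1a among them, and 0 fell; 9 were higher and 0 lower at an unadjusted p under 0.05, with a median of 0.30. The list median on resveratrol array 3 was 0.00, within the standard-diet range. Acaa1a, the thiolase of the pathway, read -0.09, -0.25, -0.58, -0.42 and -0.59 on standard diet and 0.27, 0.37, 0.02 and 0.31 with resveratrol. All resveratrol livers were higher, array 3 the least so. The difference was 0.63 ± 0.10 (SE; limma adjusted p = 0.029), against 0.73 for high calorie alone, and a second probe gave 0.34. This is a call lost without standard-diet array 3 or 4 or resveratrol array 1, 2 or 4 (adjusted p up to 0.11). Lonp2, a peroxisomal protease, rose by 0.54 (adjusted p = 0.037), with 0.03 at a second probe.

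Of 20 tested genes of mitochondrial oxidation, 0 were called with all arrays; 11 were higher and 0 lower at an unadjusted p under 0.05, with a median of 0.20. Cpt1a, the entry carrier, stood at 0.38 ± 0.12 (SE; limma adjusted p = 0.28; 0.08 at a second probe), reading -0.28, 0.13, -0.69 and -0.02 with resveratrol against -0.54, -0.74, -0.64, -0.59 and -0.45. Array 3 alone lay within the standard-diet range. Among 22 tested PPAR-alpha targets 0 were called, with 6 higher and 0 lower at an unadjusted p under 0.05. Their median was 0.30, 0.40 and 0.26 on resveratrol arrays 1, 2 and 4 but -0.08 on array 3. Of 16 lipid droplet genes, 1 rose: Plin2, the coat protein of hepatocyte droplets. It read -0.52, -0.70, -0.51, -0.38 and -0.54 on standard diet and 0.04, 0.17, -0.10 and 0.24 with resveratrol. The livers did not overlap, and the difference of 0.62 ± 0.08 (SE; limma adjusted p = 0.0066) was smaller than that of high calorie alone (0.95), with resveratrol minus high calorie at -0.33 (adjusted p = 0.036).

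Since array 3 differed from its group in these lists and carried the acute phase rise, the comparison was also read without it. Then 210 genes were called (0.643%), 138 higher (0.422%) and 72 lower (0.22%), and 63 of the 70 were among them. On the 49 lists, 62 members were called, 47 higher and 15 lower, where all 4 arrays gave 14 higher and 8 lower. Genes of fat handling were among the added rises, named here after their values were seen: of mitochondrial oxidation 5 (Etfdh, Acadm, Cpt1a, Eci2 and Cpt2), of the lipid droplet Cidea, Cidec and Plin4 beside Plin2, of fatty acid uptake Cd36, Fabp2, Slc27a2 and Pparg, of PPAR-alpha targets Cyp4a14, Aldh3a2, Acot1 and Vnn1 among others. Cidea, a droplet-fusion protein, went from 2.01 (adjusted p = 0.22) to 2.86 (adjusted p = 0.0012) and Cd36, the fatty acid translocase, from 0.89 (adjusted p = 0.087) to 1.12 (adjusted p = 0.0041). The xenobiotic cytochromes Cyp3a11, Cyp3a16, Cyp3a25, Cyp3a41a and Cyp3a44 were called as well, at 1.11 to 1.55; they are close paralogs whose probes may share transcripts. New genes numbered 18 and genes shared with high calorie 168. The cholesterol calls were the same 8 genes. The counts rest on dropping an array chosen for its values, 1 of 4, and its part in the difference was not tested otherwise. Leaving out standard-diet array 2 instead gave a similar number of calls, 214, but only 31.8% of them were higher.

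**Figure D4:**
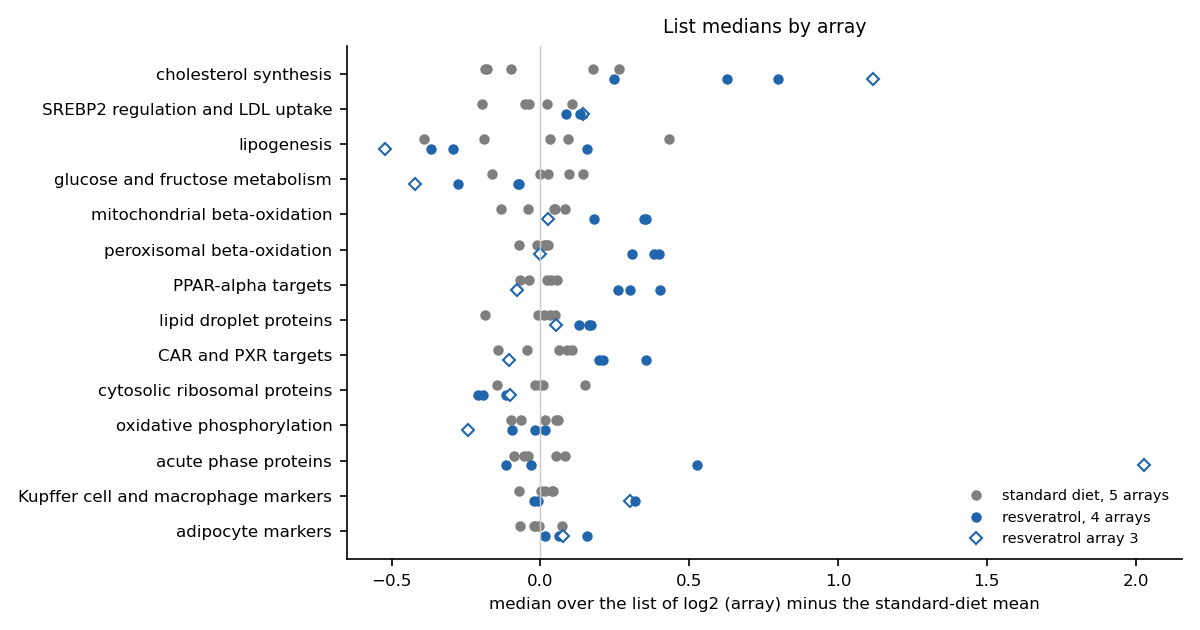
Median over each list of a liver's log2 ratio minus the standard-diet mean, with 1 point per array for 14 of the lists and an open diamond for resveratrol array 3. Array 3 has the highest cholesterol synthesis and acute phase medians (1.12 and 2.03) and lies within the standard-diet points for mitochondrial and peroxisomal oxidation, where the other 3 resveratrol arrays lie above them.

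The remaining genes changed by the diet with and without resveratrol were of mixed function. Cfd, adipsin, a complement protease made mainly by adipocytes, had the largest difference: -2.12, -1.64, -2.22, -2.03 and -2.22 on standard diet and 0.29, 1.42, -0.13 and 0.52 with resveratrol. The lowest resveratrol liver was above the highest standard-diet liver by more than the range of the latter. The difference was 2.57 ± 0.33 (SE; limma adjusted p = 0.0056), 5.93-fold, and high calorie alone gave 2.52. Of 9 adipocyte markers tested, Cfd was the only one called; the list median was from 0.02 to 0.16 on resveratrol arrays and from -0.07 to 0.07 on standard diet, Fabp4 was at 1.51 (adjusted p = 0.084; 1.14 and -0.10 at further probes), Adipoq at 0.17, Lep at 0.01, Retn at 0.03 and Plin1 at 0.00. Resveratrol array 2 was the highest resveratrol array for Cfd, for Fabp4 (1.79, against at most 0.66 on the others) and for Adipoq (0.76, against at most 0.37). It was not the highest for Lep, Retn, Lipe, Adrb3 or Pck1. These 9 markers were above background on all 9 arrays.

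Por, the reductase that feeds electrons to the microsomal cytochromes and to Sqle and Cyp51, rose by 0.87 ± 0.10 (SE; limma adjusted p = 0.0031), from -0.44, -0.76, -1.02, -0.72 and -0.72 to 0.13, 0.30, -0.10 and 0.21. Among 26 CAR and PXR targets 1 was called, Por itself, with 12 higher and 0 lower at an unadjusted p under 0.05 and 5 without array overlap. No arrays overlapped, and high calorie alone gave 0.62. Dio1, which activates thyroid hormone, rose by 0.85, and Paqr9, a membrane receptor of the progestin and adipoQ family, by 0.56. Nt5e, the ecto-nucleotidase CD73, rose by 0.58 with resveratrol and by 1.33 without it, a difference that was called (-0.75, adjusted p = 0.0044); its second probe gave 0.03. Raet1d, a ligand of the NKG2D receptor, and Pigp, of GPI-anchor synthesis, likewise rose less with resveratrol (0.70 and 0.54) than without (1.21 and 0.92). The calls of Dio1, Paqr9, Nt5e, Raet1d and Pigp were each lost without standard-diet array 3 or 4 or resveratrol array 2 or 4, among others (adjusted p up to 0.14), while that of Por was not lost with any array left out.

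Among the falls, Hamp, the gene of hepcidin, which limits iron export, read 1.46, 0.85, 1.36, 1.57 and 1.49 on standard diet and 0.10, 0.42, 0.45 and -0.07 with resveratrol. The groups were apart, and the difference of -1.12 ± 0.18 (SE; limma adjusted p = 0.028) stood beside -1.64 for high calorie alone; resveratrol minus high calorie was 0.52, which did not pass (adjusted p = 0.11). Cdh1, E-cadherin, a periportal adhesion protein, read 0.77, 0.34, 1.37, 1.14 and 0.72 against -0.05, -0.17, 0.31 and -0.64. Its nearest arrays, resveratrol 3 and standard diet 2, were 0.31 and 0.34, and its adjusted p was 0.050 at a difference of -1.01. Both calls were lost without standard-diet array 1, 3 or 4 or resveratrol array 1 or 4, and that of Cdh1 without resveratrol array 2 (adjusted p up to 0.11 for Hamp and 0.14 for Cdh1). Further falls were Nrn1 (-0.67), Mif, a cytokine (-0.61), Gtpbp4, of ribosome assembly (-0.50), Apoc3, the apolipoprotein that slows triglyceride clearance (-0.44, and -0.45 at a second probe), Hgfac, the activator of hepatocyte growth factor (-0.41), and Trim8 (-0.36). Of 72 tested cytosolic ribosomal protein genes, 2 fell (Rps25 and Rpl35, both -0.28) and 0 rose, with 35 lower and 0 higher at an unadjusted p under 0.05 and a median of -0.15; high calorie alone gave a median of -0.30.

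The genes new with resveratrol that lie outside sterol and fructose metabolism had small differences. Fpgs, which adds the glutamate tail to folates, read 0.17, 0.30, -0.10, -0.05 and -0.06 on standard diet and 0.63, 0.37, 0.79 and 0.61 with resveratrol, a difference of 0.55 ± 0.10 (SE; limma adjusted p = 0.037). Its closest arrays, standard diet 2 and resveratrol 2, both lay in the second slide run. Hacd3, a dehydratase of fatty acid elongation, rose by 0.51, Nab2, a repressor of the EGR factors, by 0.45 and Scpep1, a carboxypeptidase, by 0.33, with 0.04 at a second probe. Zbtb26 and Tmem63b fell by 0.39 and 0.33. The differences of high calorie alone were 0.13 for Fpgs, 0.18 for Hacd3, 0.01 for Nab2, 0.05 for Scpep1, -0.05 for Zbtb26 and -0.05 for Tmem63b, and none of the 6 passed. With slide run as a block the count of new genes was 0, and at an adjusted p under 0.01 in each test it was 2.

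For the 16 genes with the largest high-calorie differences, chosen on that comparison, the resveratrol diet gave 3 calls against standard diet (Cfd, Hamp and Cdh1). Cidea differed by 4.11 with high calorie alone, and its resveratrol arrays read -0.70, -0.09, -3.64 and 0.09 against -3.13, -1.98, -3.55, -3.40 and -3.40. Resveratrol arrays 1, 2 and 4 were above all standard-diet arrays, and array 3 was below them all. Cyp2b9, a cytochrome of female-biased expression, went from 3.25 without resveratrol to 0.80 with it (adjusted p = 0.44; -0.02 at a second probe), Gsta2, a glutathione transferase, from 2.14 to -0.36 (adjusted p = 0.77) and Cidec from 2.12 to 0.95 (adjusted p = 0.057). Egfr, the epidermal growth factor receptor, went from -1.72 to 0.10 (adjusted p = 0.94), with a 95% interval of -0.56 to 0.76; further probes gave -0.18 and -0.23.

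Genes of male liver did not pass with all arrays. Hsd3b5, a steroid reductase of male liver, fell by 4.18 with high calorie alone and stood at -1.60 ± 0.35 (SE; limma adjusted p = 0.087) with resveratrol. Its arrays read 1.46, 1.36, 2.04, 1.57 and 1.28 on standard diet and 0.93, 0.66, -0.48 and -1.36 with resveratrol. All 4 resveratrol livers were below the standard-diet livers, arrays 1 and 2 by the least. Slco1a1, an organic anion transporter, and Hsd3b4 did not overlap either, at -0.96 (adjusted p = 0.14) and -0.86 (adjusted p = 0.083). Of 16 tested male-biased genes 0 were called, with 1 higher and 6 lower at an unadjusted p under 0.05. Of 17 female-biased genes 0 were called, with 5 higher and 0 lower. Without resveratrol array 3, 1 male-biased gene fell, Gstp1 (-1.78, limma adjusted p = 0.024). In that fit 3 female-biased genes rose, Cyp3a16 (1.55), Cyp3a44 (1.55) and Cyp3a41a (1.46), which are among the cytochromes named above. With all arrays a second probe of Cyp3a44 gave 0.08.

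**Figure D5:**
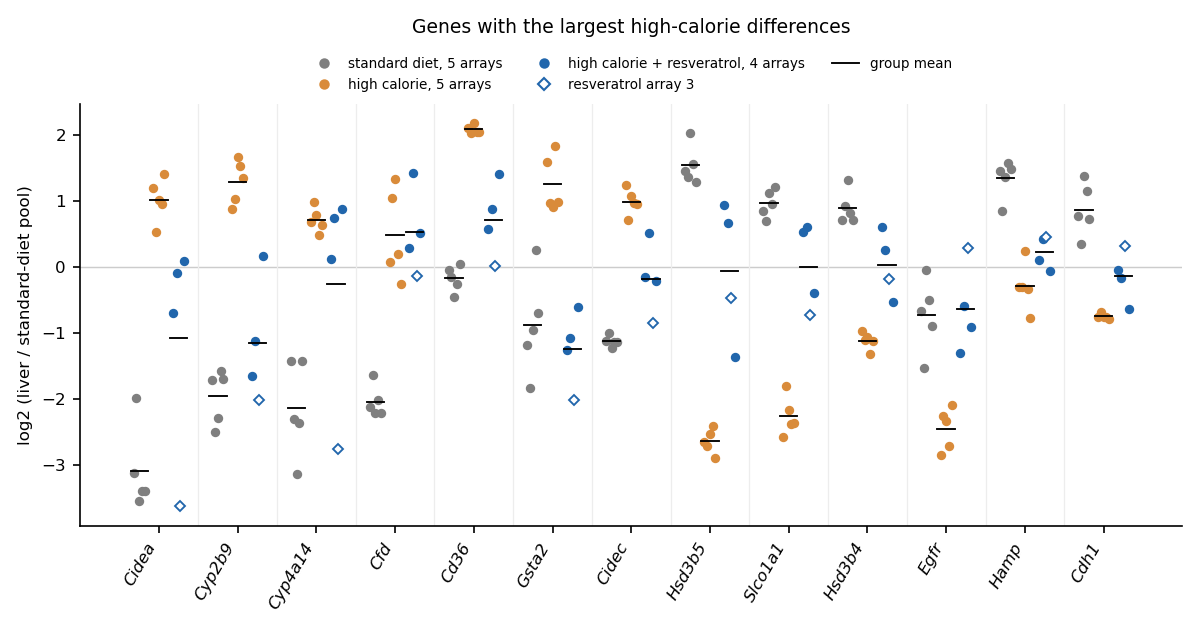
Log2 ratio of each liver to the standard-diet pool for 13 of the 16 genes with the largest called high-calorie differences, those named in the text, with 1 point per array, black bars for group means and an open diamond for resveratrol array 3. The resveratrol means lie between those of the other diets for most genes, near the standard-diet mean for Egfr and Gsta2 and level with high calorie for Cfd; resveratrol livers differ among themselves by over 3 log2 units for Cidea and Cyp4a14.

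Genes tied to the proposed mediators of resveratrol did not pass with all arrays. Of 22 tested genes of sirtuins and NAD metabolism 0 were called, with 3 higher and 1 lower at an unadjusted p under 0.05 in limma. Of 18 genes of AMPK and PGC-1 0 were called, with 2 higher and 2 lower. Without resveratrol array 3, 1 gene of each list was called, where 0.643% of all tested genes were. These were Nmnat3 (0.58, limma adjusted p = 0.015) and Camkk2 (0.37, adjusted p = 0.046). Sirt1 differed by -0.05, with a 95% interval of -0.17 to 0.07, Ppargc1a by -0.05 (-0.18 to 0.07), Prkaa2, an AMPK catalytic subunit, by -0.11 (-0.32 to 0.09) and Igf1 by 0.03 (-0.11 to 0.17). These intervals concern the messages and not the activity of the proteins. Nnmt, which methylates nicotinamide, stood at 1.19 (adjusted p = 0.20), reading -0.84, -0.73, 1.00 and 0.40 on resveratrol arrays. Of 49 oxidative phosphorylation genes 0 were called, with 0 higher and 14 lower at an unadjusted p under 0.05 and a median of -0.09, which was -0.01 without resveratrol array 3. Nqo1, an NRF2 target, was at 0.21 (adjusted p = 0.50) where high calorie alone gave 0.94.

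Acute phase genes were higher by a median of 0.72, yet of 26 tested 0 were called, with 7 higher and 0 lower at an unadjusted p under 0.05. Saa3, a serum amyloid gene, read -4.96, -5.32, 2.98 and -2.54 on resveratrol arrays and -5.21, -5.22, -4.92, -4.98 and -5.46 on standard diet. Arrays 1 and 2 lay within the standard-diet range, array 4 above it and array 3 far above. Without array 3 the list median was 0.11. Kupffer cell and macrophage markers were higher for 20 of 20 tested genes, with 0 called, 5 higher and 0 lower at an unadjusted p under 0.05; the list median was -0.02, -0.01, 0.30 and 0.32 on resveratrol arrays 1 to 4, and without array 3 the median over the list was 0.13. The erythroid marker list had a median of -0.21 over 6 tested genes, with 0 called, 0 higher and 1 lower at an unadjusted p under 0.05; it was from -0.30 to 0.05 on resveratrol arrays and from -0.23 to 0.25 on standard diet, and the median was 0.03 with slide run as a block. Stellate, endothelial, cholangiocyte and lymphocyte marker lists had medians from -0.02 to 0.05; 0 of their 18, 15, 10 and 13 tested genes were called, with at most 1 higher and 3 lower at an unadjusted p under 0.05 in any list. Their part in the differences above was not tested.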

How the data were processed

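Liver RNA of 14 mice was hybridised to 2-colour Agilent arrays of 43790 spots, with 1 mouse per array in Cy3 and the standard-diet pool in Cy5. The deposited scanner files hold spot intensity written by Feature Extraction 7.5.1, per the file headers. A deposited score table of unstated scale, which followed log processed Cy3 signal at r of 0.983 to 0.985, served as an alternative with unknown centring. Intensity was background-corrected here (normexp, offset 50), loess-normalised within arrays and expressed as log2 Cy3 over Cy5 in limma 3.58.1 (R 4.3.3); 576 outlier spots were left out. Genes well above background on at least 4 arrays were tested, 32677 of 36103, each by its brightest probe. Of 41174 probes, 20859 matched 1 gene in RefSeq tables. In 425 genes an array was missing; Plbd1 lacks resveratrol array 4. All 3 diets entered a single limma fit with Benjamini-Hochberg adjustment at 0.05. Every adjusted p here came from it or, where named, from an alternative to it. The p-values set a difference against the spread between arrays within the 3 diets. With 1 array per mouse, the parts of animal, labelling and hybridisation in that spread cannot be told apart. The number of arrays limits precision: the median 95% half-width was 0.127. The fit was tested on simulated data with independent noise, of the same spread in each diet for a given gene. That simulation held no slide runs and no outlying array, so it does not show how the calls behave under them.

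The comparison and gene lists were chosen with earlier results of these data known. Named were the 12 largest called rises and falls, up to 4 called members of a list (or 2 with the smallest p), up to 8 new rises and falls, 8 high-calorie rises and falls, and a set of fixed genes; other genes named were chosen after their values were seen. Some genes that the rule names are not reported here. Replicate numbers did not pair the arrays.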

Additional observations from a re-analysis of the deposited data

Results flagged for a closer look

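In 13 of 216 groups of 4 or 5 arrays examined (6.02%), 1 array stood far from the rest; chance alone would do so in about 1 in 20. Among resveratrol arrays, array 1 was low for Hmgcs1 (0.32, against 1.25 to 1.36 on the others) and in the median of proteasome subunits (-0.12, against 0.09 to 0.12). Array 2 was high for Khk (0.29, against -0.17 to -0.11), and array 4 was high in the median of interferon response genes (0.34, against 0.00 to 0.04).

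Among standard-diet arrays, array 2 accounted for 7 of the 13. Its Cidea value was -1.98, against -3.55 to -3.13. Its list medians, relative to the standard-diet mean, were -0.19 for lipid droplet proteins, -0.34 for glutathione transferases, -0.22 for other NRF2 targets, -0.24 for antioxidant enzymes, -0.14 for AMPK and PGC-1 genes and -0.29 for the TCA cycle and pyruvate dehydrogenase. Standard-diet array 1 was high for Cyp7a1 (0.08, against -0.80 to -0.63) and low in the median of immediate early genes (-0.04, against 0.00 to 0.01).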

How the results depend on the processing

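None of the 56 called genes with a symbol changed sign under the alternatives run, which reuse the arrays on which they were chosen. The counts of calls moved. The 70 genes became 32 with no background correction, 17 with median scaling, 32 with Agilent's processed signals, 21 with the Cy3 channel alone, 4 with the deposited scores, 24 with only the 9 arrays compared, 10 with slide run as a block, 31 with brightness as a covariate and 161 with array weights. The 47 shared with high calorie became 23, 15, 23, 17 and 4 under the first 5 of these, 10 with slide run as a block, 17 with brightness, 140 with weights, 29 within day 1 and 11 at an adjusted p under 0.01. The 17 new genes became 9, 1, 6, 1 and 0 under the first 5, 9 with day as a block, 3 within day 1, 0 with slide run as a block and 2 at 0.01. The 11 lists with a call became 7, 6, 7, 7 and 2, then 7 with 9 arrays, 6 with slide run, 7 with brightness and 18 with weights. Added after seeing the data, leaving out standard-diet array 5 with resveratrol array 3 gave 514 genes, 453 shared, 26 new and 31 lists, and slide run 2 alone gave 21 shared and 27 new, with 1 resveratrol array assumed to vary like the others. Leaving out 1 array gave 23 to 214 genes, 14 to 168 shared, 8 to 39 new and 7 to 25 lists; the extremes for lists were standard-diet arrays 3 and 4 and resveratrol array 4 (7) and resveratrol array 3 (25). The cause was not tested. Of the 70, 41 were higher; the share of higher calls was 82.4% with median scaling, 81.2% with processed signals, 71.4% with Cy3 alone, 100% with deposited scores, 69.1% with an offset of 10 and 90% with slide run as a block. Falls outnumbered rises without standard-diet array 2 (31.8% higher), within day 1 (41.8%) and with day as a block (49.2%).

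Same-numbered arrays correlated at -0.0114, -0.1824, 0.3002 and -0.0358 after group means, so the numbers do not pair them; with the replicate block 48 genes were called (36 of the 70), 35 shared, 11 new and 8 lists. For the 3 resveratrol arrays of slide run 1, diet and run cannot be told apart.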
